A study of Sus scrofa with 37 samples.

Results

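Beta cells and alpha cells of the fetal pig pancreas were compared between embryonic day 90 and embryonic day 70. The comparison took all libraries of these cell types and ages, 14 of the 37 in the series, and no gene was used to choose them. At day 70 there were 5 beta and 5 alpha libraries, and at day 90 there were 2 beta and 2 alpha libraries. The cells were purified by fluorescence-activated sorting from the pancreas of the pig (Sus scrofa), and total RNA was sequenced. The other libraries of the series were beta and alpha cells at embryonic day 40 and at postnatal days 8 and 22, and delta cells at embryonic day 90 and postnatal day 22. The labels name a cell type and an age for each library, and no strain, treatment, sex, sorting marker, number of cells or animal. Whether libraries came from separate animals, within a group or across cell types, is therefore not stated, and the p-values measure only the spread between these libraries, which may be technical.

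Beta cells make insulin, which lowers blood glucose, and alpha cells make glucagon, which raises it. Both arise in the embryo from endocrine progenitors of the pancreatic epithelium, and they build up secretory granules and divide less as development goes on. Much of the ability to answer glucose with hormone release is acquired around and after birth.

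The hormones matched the labels. INS (insulin) ranged from 137000 to 267000 TPM, a length-corrected share of a library's transcripts, in the 7 beta libraries and from 512 to 6045 TPM in the 7 alpha libraries. GCG (glucagon) ranged from 51260 to 108800 TPM in the alpha libraries and from 33.0 to 1699 TPM in the beta libraries, and SST (somatostatin, the delta cell hormone) did not exceed 126 TPM in any of the 14. Between 13225 and 15337 genes reached 1 TPM per library, and the sequencing depth is unknown because the table holds TPM only. Day 70 library 3 of both cell types stood apart from the other day 70 libraries: it held the highest levels of stress and early response genes and the lowest levels of exocrine genes of its group. The Y-linked transcripts KDM5D, USP9Y and ZFY together were at 0.576 TPM or less in all 4 day 90 libraries and in day 70 libraries 1 and 3 of both cell types, and at 78.4 to 123 TPM in day 70 libraries 2, 4 and 5. Age and this split therefore overlap, and counts of calls are also given without library 3 and within the 8 libraries low in Y-linked transcripts.

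The first comparison asked which genes differed between the ages on average over both cell types. Each gene was expressed as log2(TPM + 1), so a fold change understates the change of genes at low TPM, and limma was fitted to the 16403 genes with at least 1 TPM in at least 2 of the 14 libraries. A gene was called at a Benjamini-Hochberg adjusted p below 0.05 over all fitted genes. The mean change called 17 genes (0.104% of those fitted), 10 higher (0.061%) and 7 lower (0.0427%) at day 90, while 1890 (11.5%) passed an unadjusted p of 0.05. Among the called genes SCIN, IGF2BP1 and IGFBP2 fell, genes of actin severing and of fetal growth, and EYA2, GADD45A and NR4A1 rose. The median half-width of the 95% interval of a change was 0.50 log2 units over all genes, which limits what could be called. The split of calls was 16 higher to 6 lower after scaling by the median of ratios and 16 to 7 after quantile normalization.

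**Figure D1:**
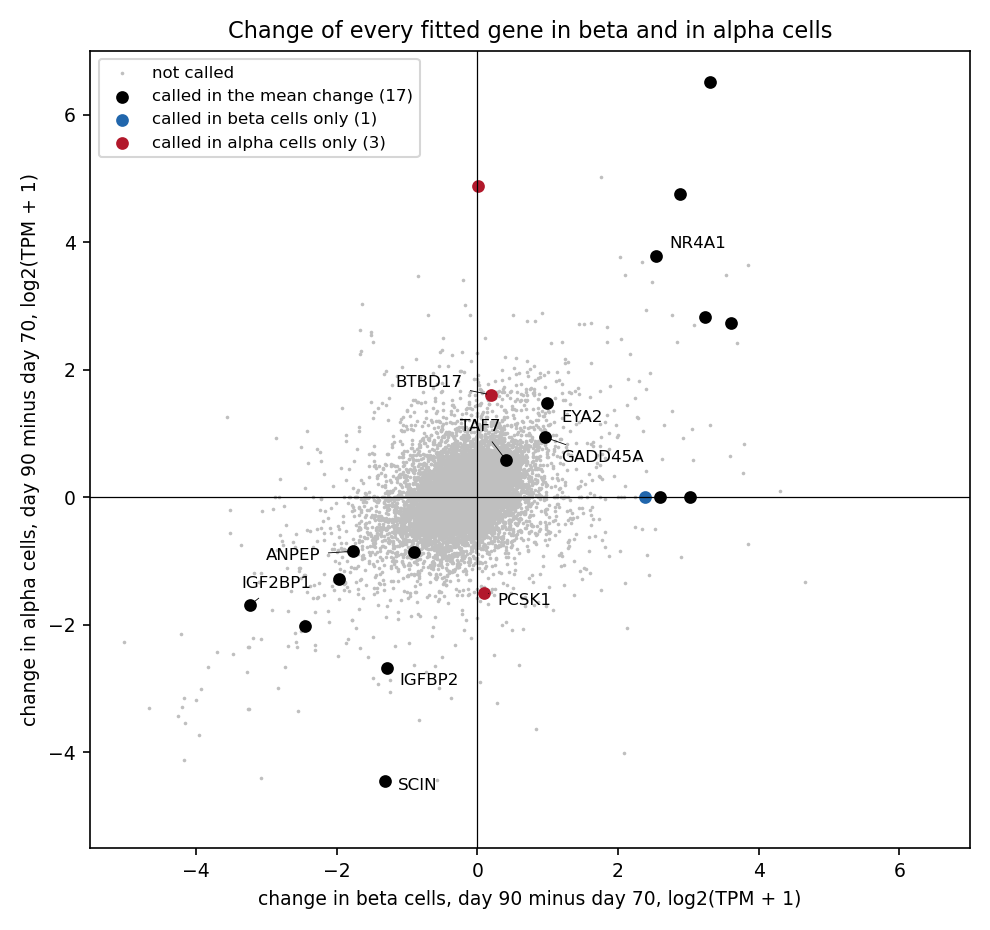
Change of each of the 16403 fitted genes between embryonic days 70 and 90 on the log2(TPM + 1) scale, in beta cells on the x axis and in alpha cells on the y axis. Black points are the 17 genes called in the mean change, the blue point was called in beta cells only and the 3 red points in alpha cells only; SCIN lies lowest of the named falls on the alpha axis, at -4.46, and NR4A1 lies high on both, at 2.55 and 3.77.

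IGF2BP1 (ENSSSCG00000023128.2) encodes an RNA-binding protein that stabilises fetal growth transcripts such as that of IGF2. Its level in beta cells was 14.2, 17.1, 9.98, 18.6 and 17.2 TPM in the 5 day 70 libraries and 0.231 and 1.38 TPM at day 90. In alpha cells it was 22.4, 30.4, 12.7, 14.7 and 14.9 TPM at day 70 and 4.64 and 5.18 TPM at day 90. The ages did not overlap in either cell type, and the day 90 beta libraries were close to 0 while the day 90 alpha libraries were not. The table holds 2 identifiers with this symbol, and 1 of them passed the filter on low values. The mean change was log2 -2.46 ± 0.25 (SE; limma adjusted p = 0.000749), with -3.23 ± 0.36 in beta cells (limma adjusted p = 0.00173) and -1.69 ± 0.36 in alpha cells (limma adjusted p = 0.175). The beta call was lost without beta day 90 library 1 (limma adjusted p = 0.0777).

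IGFBP2 (ENSSSCG00000035392.1) encodes a secreted protein that binds the insulin-like growth factors. In beta cells it was at 57.6, 54.9, 48.5, 33.9 and 37.8 TPM at day 70 and at 16.8 and 19.4 TPM at day 90. The alpha level was at 45.3, 84.2, 32.9, 35.3 and 54.1 TPM at day 70 and at 5.62 and 7.56 TPM at day 90. All 4 day 90 libraries lay below all 10 day 70 libraries. The mean fall was log2 -1.99 ± 0.22 (limma adjusted p = 0.00147), and the alpha change of -2.69 ± 0.31 was called on its own (limma adjusted p = 0.00338). Of the 14 fits that left out 1 library, only that without alpha day 90 library 1 lost the alpha call (limma adjusted p = 0.11). Among 14 other settings 12 kept it, and the adjusted p reached 0.261.

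SCIN (ENSSSCG00000015353.3) encodes scinderin, which severs actin filaments under the plasma membrane of secretory cells. The beta libraries held 100.1, 134, 164.4, 108 and 68.0 TPM at day 70 and 39.0 and 49.6 TPM at day 90. The alpha libraries held 126, 151, 166.5, 176 and 109 TPM at day 70 and 10.1 and 2.89 TPM at day 90. The ranges of the 2 cell types overlapped at day 70, and at day 90 both alpha libraries lay below both beta libraries. The mean change was log2 -2.88 ± 0.26 (limma adjusted p = 0.000204) and the alpha change -4.46 ± 0.36 (limma adjusted p = 0.000131), while the beta change of -1.31 ± 0.36 was not called (limma adjusted p = 0.326). The difference between the 2 changes was 3.15 ± 0.51 and missed the threshold (limma adjusted p = 0.15).

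The other genes called lower were ANPEP, PCDHB4, CTNNA2 and an identifier without a symbol. ANPEP (ENSSSCG00000001849.3), an aminopeptidase of cell membranes, was at 15.9, 23.9, 24.01, 32.5 and 38.02 TPM in beta cells at day 70 and at 6.21 and 7.55 TPM at day 90. Alpha libraries were at 46.8, 61.7, 40.7, 35.0 and 49.6 TPM at day 70 and at 22.3 and 28.0 TPM at day 90. Both cell types held less at day 90, with no overlap between ages, and the mean change was log2 -1.31 ± 0.20 (limma adjusted p = 0.023). The call was lost without any 1 of the 4 day 90 libraries and without beta library 2 or alpha library 1 of day 70 (limma adjusted p from 0.0522 to 0.192). PCDHB4 (ENSSSCG00000036516.1), a protocadherin of a family of similar clustered genes, fell by 1.62 on the log2 scale (limma adjusted p = 0.0107), a call lost without either beta day 90 library or alpha day 90 library 2 (limma adjusted p up to 0.0817). CTNNA2 (ENSSSCG00000008254.3), an alpha catenin that ties cadherins to actin, fell by 0.88 (limma adjusted p = 0.023), a call lost in 5 of the 14 fits that left out 1 library, at most at 0.199 without beta day 90 library 1. Neither gene overlapped between ages in either cell type. Each symbol is carried by 2 identifiers of the table, so their levels are uncertain, and the other identifiers changed by -0.02 (PCDHB4) and -0.29 (CTNNA2). ENSSSCG00000012071.3, which has no symbol, fell by 2.24 (limma adjusted p = 0.035), a call kept in 5 of the 14 fits and at most at 0.215 without beta day 90 library 2.

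EYA2, GADD45A and TAF7 were called higher at day 90. EYA2 (ENSSSCG00000007453.3), a phosphatase and partner of homeodomain transcription factors, was at 141.5, 97.6, 68.7, 93.8 and 87.3 TPM in beta cells at day 70 and at 204 and 175 TPM at day 90. In alpha cells it was at 94.6, 83.6, 48.1, 101.4 and 72.3 TPM at day 70 and at 212 TPM or more in both libraries of day 90. The rise was log2 1.23 ± 0.19 (limma adjusted p = 0.023), with every day 90 library above every day 70 library of its cell type. It was not called without any 1 of the 4 day 90 libraries or without beta day 70 library 2 (limma adjusted p from 0.0562 to 0.199). GADD45A (ENSSSCG00000037066.1), a growth arrest and DNA damage response gene, was at 20.7, 21.5, 27.7, 18.7 and 22.5 TPM in beta cells at day 70 and at 46.8 and 40.8 TPM at day 90. The alpha level was at 36.0, 36.1, 45.9, 32.7 and 41.2 TPM at day 70 and at 68.4 and 80.2 TPM at day 90. Day 70 library 3 was the highest of its group in both cell types, and the rise of log2 0.95 ± 0.12 was 0.96 in beta and 0.94 in alpha cells (limma adjusted p = 0.00662 for the mean). The GADD45A call was lost without beta day 90 library 1 (limma adjusted p = 0.0722) or alpha day 90 library 2 (0.0699). TAF7 (ENSSSCG00000028168.2), a subunit of the general transcription factor TFIID, rose by 0.49 ± 0.08 (limma adjusted p = 0.037), from 82.1 to 98.8 TPM over the 10 day 70 libraries to 119 to 143.9 TPM at day 90. The TAF7 call was kept in 3 of the 14 fits that left out 1 library, those without beta library 3, alpha library 3 or alpha library 4 of day 70, and reached 0.243 without beta day 90 library 1.

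**Figure D2:**
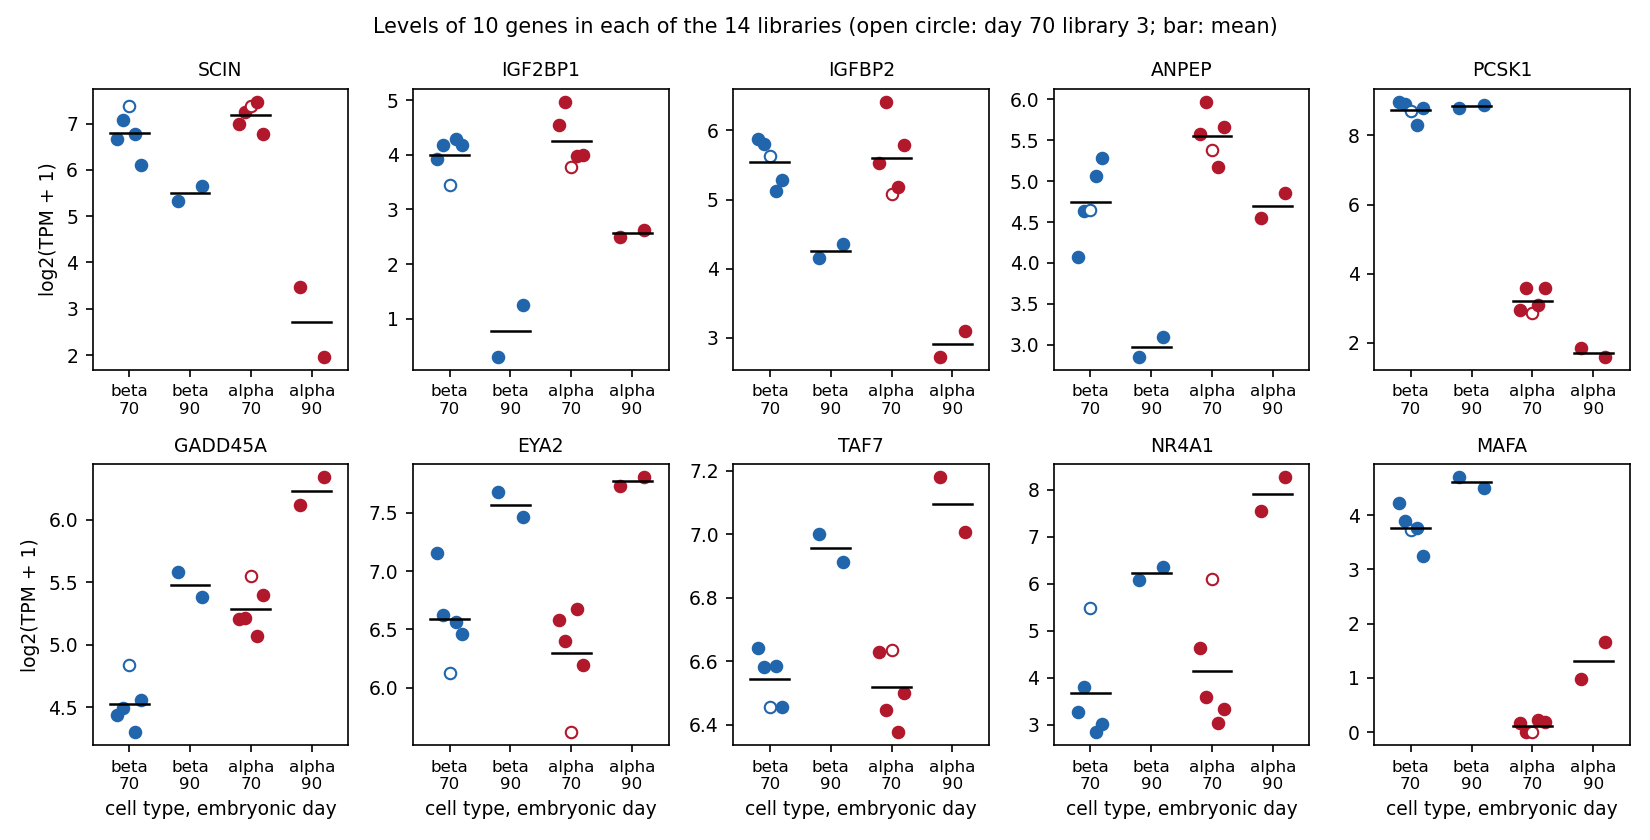
Level of 10 genes as log2(TPM + 1) in each of the 14 libraries, beta cells in blue and alpha cells in red, with the group mean as a bar and day 70 library 3 as an open circle. SCIN, IGF2BP1, IGFBP2 and ANPEP lie lower at day 90 in both cell types, PCSK1 lower in alpha cells and within the day 70 range in beta cells, and GADD45A, EYA2, TAF7, NR4A1 and MAFA higher in both.

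NR4A1 (ENSSSCG00000031321.1), an orphan nuclear receptor that cells induce rapidly on a stimulus, rose by log2 3.16 ± 0.54 (limma adjusted p = 0.0409). In beta cells it was at 8.602, 13.0, 43.7, 6.15 and 7.05 TPM at day 70 and at 67.0 and 81.5 TPM at day 90. Alpha libraries were at 23.8, 11.1, 67.9, 7.16 and 9.06 TPM at day 70 and at 187 and 308 TPM at day 90. Library 3 was the highest of the day 70 libraries in both cell types and still below day 90. The call was kept in 2 of the 14 fits that left out 1 library, those without library 3 of beta or of alpha cells, and the adjusted p ranged from 0.0558 to 0.224 in the other 12.

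The remaining called rises came from identifiers that were at 0 in most day 70 libraries. F8A3 (ENSSSCG00000040321.1) was listed at 0 in all 10 day 70 libraries and at 10.4 and 6.78 TPM in beta and 5.31 and 7.01 TPM in alpha cells at day 90 (limma adjusted p = 8.96e-06 for the mean change). F8A1 (ENSSSCG00000031635.1), a gene of the same family, was at a mean of 13.4 TPM in beta and 18.9 TPM in alpha cells at day 70 and 2.60 and 7.53 TPM at day 90, and its change was not called (limma adjusted p = 0.088). The part of reads shared between these copies was not tested. A second identifier of CHMP5 (ENSSSCG00000039190.1) was listed at 0 in all 5 alpha day 70 libraries and at 75.5 and 107.3 TPM in the alpha day 90 libraries, while the more abundant identifier of CHMP5 (ENSSSCG00000010995.3), an endosomal sorting subunit, changed by log2 0.12 (limma adjusted p = 0.833). DEFB136, AC135178.2, ENSSSCG00000034184.1 and ENSSSCG00000040830.1 were called as well. DEFB136 and ENSSSCG00000040830.1 were listed at 0 in all alpha libraries and all beta day 70 libraries, and reached at most 6.65 and 9.48 TPM in beta cells at day 90. F8A3, DEFB136 and ENSSSCG00000040830.1 thus passed the filter on low values only through their day 90 libraries, and their day 70 values have no spread. Calls of these genes are therefore no independent evidence of a change. The values of all these identifiers are uncertain. Without 1 library their calls, other than that of F8A3, were lost in 3 to 7 of the 14 fits, each of them without beta day 90 library 1 and without alpha day 90 library 2 (limma adjusted p from 0.0748 to 0.202).

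Of the 17 genes, 4 (SCIN, IGF2BP1, IGFBP2 and F8A3) were called in all 14 fits that left out 1 library, and 9 were called in at least 10 of the 14. F8A3 passed the filter only through its day 90 libraries. With beta and alpha libraries of close title numbers averaged as pairs, the mean change called 2 genes, SCIN and F8A3, and no longer IGF2BP1 or IGFBP2. The count was 84 without beta day 70 library 3, 61 without alpha day 70 library 3 and 320 (126 higher and 194 lower) without both, and all 17 genes were among the 320. Of all fitted genes, 0.768% were called higher and 1.18% lower without both. Genes described below that were called in that fit, in which the day 70 groups hold 4 libraries each, include DLL1 (limma adjusted p = 0.0398), HHIP (0.0386), COL1A2 (0.0123), FN1 (0.0483), RBPJL (0.0344), PTF1A (0.0274), MCM3 (0.048) and MT-ND5 (0.0464), all lower, and ATF4 (0.0329), higher. Libraries 3 were set apart after their values were seen, so calls and counts without them, here and below, are no independent evidence. The count of the mean change was 6 without beta day 90 library 1 or without alpha day 90 library 2, 9 without beta day 70 library 2, beta day 90 library 2 or alpha day 90 library 1, and 10 without alpha day 70 library 1. Within the 8 libraries low in Y-linked transcripts, no gene was called by limma, and 1387 passed an unadjusted p of 0.05. The day 70 groups of that subset hold only libraries 1 and 3, so the part of few libraries and of library 3 in its results cannot be separated.

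The next comparison took the change in each cell type. The spread of a gene was pooled over all 4 groups, so the SE and p of 1 cell type also depend on the other. In beta cells limma called 5 genes (0.0305%), 4 higher (0.0244%) and 1 lower (0.0061%) at day 90, and 1321 (8.05%) passed the unadjusted threshold, 236 of them higher (1.44%) and 1085 lower (6.61%). The gene that fell was IGF2BP1, and those that rose were F8A3, DEFB136, ENSSSCG00000040830.1 and ENSSSCG00000034240.1, each listed at 0 in all 5 beta day 70 libraries. Of these rises, F8A3, DEFB136 and ENSSSCG00000040830.1 passed the filter only through day 90 libraries. In alpha cells 7 genes (0.0427%) were called, 4 higher (0.0244%) and 3 lower (0.0183%), and 1213 (7.39%) passed the unadjusted threshold, 896 higher (5.46%) and the others lower (1.93%). The alpha calls were SCIN, IGFBP2 and PCSK1 lower and F8A3, BTBD17, the second CHMP5 identifier and ENSSSCG00000034033.1 higher. The median change of all fitted genes was log2 -0.13 in beta and 0.07 in alpha cells, and it was -0.02 and 0.00 after scaling by the median of ratios. The balance of directions within a cell type is thus relative to that shift: the alpha calls were 1 higher and 2 lower under the median of ratios and under quantile normalization. Without library 3 of its own cell type at day 70, the count was 24 in beta cells and 28 in alpha cells. A limma fit of the 7 beta libraries alone called none (1393 at an unadjusted p of 0.05), and one of the 7 alpha libraries alone called 8, 7 higher and 1 lower, of which 4 were among the 7. In alpha cells the count was 4 without alpha day 70 library 4, and 3 without beta libraries 2 or 5 or alpha libraries 1, 2 or 5 of day 70, either beta day 90 library or alpha day 90 library 1.

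PCSK1 (ENSSSCG00000014169.3) encodes prohormone convertase 1/3, which cleaves proinsulin and, in alpha cells, can yield GLP-1 instead of glucagon. In alpha cells it was at 6.71, 11.1, 6.27, 7.52 and 11.1 TPM at day 70 and at 2.59 and 2.02 TPM at day 90. In beta cells it was at 501, 480, 417, 312 and 445 TPM at day 70 and at 443 and 471 TPM at day 90. The ages did not overlap in alpha cells and did overlap in beta cells. The alpha fall was log2 -1.50 ± 0.23 (limma adjusted p = 0.042) and the beta change 0.10 ± 0.23 (limma adjusted p = 0.943). The difference of 1.60 ± 0.32 was not called (limma adjusted p = 0.679). INS, which alpha cells should lack, was at 1049, 1790, 1404, 2197 and 6045 TPM in the alpha day 70 libraries and at 1132 and 512 TPM at day 90, and its part in the PCSK1 level of alpha cells was not tested.

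BTBD17 (ENSSSCG00000026789.2), a BTB domain gene, rose in alpha cells by log2 1.60 ± 0.24 (limma adjusted p = 0.042). It was at 9.69, 9.21, 12.2, 6.67 and 9.72 TPM at day 70 and at 31.2 and 29.7 TPM at day 90. In beta cells it was at 23.4 to 36.6 TPM at day 70 and at 42.0 and 28.8 TPM at day 90, so the alpha libraries at day 90 reached the range of the beta libraries. ENSSSCG00000034033.1 was called in alpha cells as well, listed at 0 at day 70 and at 34.4 and 23.4 TPM at day 90. The calls of PCSK1, BTBD17, ENSSSCG00000034033.1 and the second CHMP5 identifier in alpha cells were each kept in 3 or 4 of the 14 fits that left out 1 library, and their adjusted p values otherwise reached 0.685.

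The third comparison asked whether the change differed between beta and alpha cells. No gene was called by limma (0% of 16403), and 609 (3.71%) passed an unadjusted p of 0.05, 73 with a higher (0.445%) and 536 with a lower change (3.27%) in beta than in alpha cells. That balance is relative to a shift of all genes: the median difference was log2 -0.21, with 27.53% above zero. The median was -0.016 under the median of ratios, where 375 passed, and 0.001 under quantile normalization, where 351 passed. Differences of single genes below are not corrected for that shift. The smallest adjusted p was 0.0764, for ENSSSCG00000040830.1. The count was 3 with no filter, with array weights and with all 37 libraries in the fit, 1 under the median of ratios, quantile normalization and the title-number block, 1 without alpha day 90 library 1 and 1 without day 70 libraries 3. GUCY1A1, a subunit of the nitric oxide receptor, and PARD3B, a cell polarity gene, were among the genes at 10 TPM or more with the smallest p. GUCY1A1 was at 39.6 to 52.5 TPM in beta cells at day 70 and at 27.4 and 23.0 TPM at day 90, against 17.9 to 25.0 and 25.3 and 26.1 TPM in alpha cells, a difference of log2 -1.10 (95% interval -1.59 to -0.61, limma adjusted p = 0.679). PARD3B was at 13.1 to 18.7 TPM in beta cells at day 70 and at 10.8 and 12.4 TPM at day 90, against 12.9 to 16.9 and 26.3 and 30.2 TPM in alpha cells (difference -1.32, 95% interval -1.91 to -0.73, limma adjusted p = 0.679). In both genes the day 90 libraries lay below day 70 in beta cells and above it in alpha cells.

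No change of a hormone transcript was called. INS in beta cells was at 194400, 137000, 214300, 222700 and 176900 TPM at day 70 and at 264300 and 267000 TPM at day 90. Both day 90 libraries lay above all 5, but the change of log2 0.51 ± 0.64 was not called (limma adjusted p = 0.881). That standard error pools the spread of all 4 groups. It thus includes the low and variable INS of the alpha libraries, such as 6045 TPM in alpha day 70 library 5, and overstates the spread among beta libraries. The fit of the beta libraries alone did not call INS either. GCG in alpha cells was at 62450, 51260, 108800, 78000 and 89850 TPM at day 70 and at 73730 and 67590 TPM at day 90, within the day 70 range. The hormones INS, GCG, SST and PPY together took 18.97 ± 3.38% (SD, n = 5) of the TPM of beta cells at day 70 and 26.59 ± 0.179% (n = 2) at day 90, and 8.11 ± 2.31% and 7.17 ± 0.491% in alpha cells. In an exact two-sided permutation test within cell types, the smallest p of which is 0.00227, the difference of 3.35 percentage points gave p = 0.116 (adjusted p = 0.435 over 4 shares). The shares of mitochondrially encoded genes (-1.06 points, adjusted p = 0.435 in the same exact test), ribosomal protein genes (0.232 points, adjusted p = 0.701, exact) and the 10 most abundant genes (-0.0244 points, adjusted p = 0.989, exact) did not pass either. The last value averages opposite differences. In beta cells the 10 most abundant genes took 33.11 to 39.73% of the TPM at day 70 and 40.37 and 41.04% at day 90, and in alpha cells 26.47 to 30.99% and then 24.47 and 25.75%. The ages did not overlap in either cell type, higher at day 90 in beta and lower in alpha cells, and the difference between cell types was not tested.

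Genes of hormone processing and secretion mostly lay higher at day 90. Of 39 fitted, none was called in the mean change, although PCSK1, a member, fell in alpha cells (log2 -1.50, limma adjusted p = 0.042). In the mean change 13 passed an unadjusted p of 0.05 upward and 1 downward (4.94% and 6.58% of all fitted genes), 29 lay above zero and the median was log2 0.26 against -0.02 over all genes. Of all fitted genes 46.89% lay above zero in the mean change. Counts above or below zero, here and in the lists below, are to be read against that share. CPLX2, a complexin of vesicle fusion, was at 411, 455, 326, 322 and 380 TPM in beta cells at day 70 and at 523 and 478 TPM at day 90. The level in alpha cells was at 531, 460, 422, 475 and 584 TPM and then at 746 and 798 TPM, a mean change of log2 0.53 ± 0.12 (limma adjusted p = 0.0972). CPLX2 was one of 5 members, with SCG5, RAB3A, SYP and CHGA, in which the ages did not overlap in either cell type (1.03% of all fitted genes). SCG5, a chaperone of prohormone convertase 2, changed by 0.51 ± 0.14 (limma adjusted p = 0.16). CHGA, the granule protein chromogranin A, was at 7198 to 10120 TPM in beta cells at day 70 and at 10940 and 12390 TPM at day 90, and at 2007 to 3348 TPM and then 4017 and 4948 TPM in alpha cells (limma adjusted p = 0.295).

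Beta cell and alpha cell markers and islet transcription factors had medians near that of all genes. They were log2 0.10 over 22 beta cell markers, 0.00 over 21 alpha cell markers and -0.03 over 47 islet transcription factors, and no member was called in the mean change. MAFA, the factor that drives insulin transcription in mature beta cells, was at 17.6, 13.8, 12.1, 12.6 and 8.49 TPM in beta cells at day 70 and at 25.0 and 21.6 TPM at day 90. Alpha libraries were at 0.171 TPM or less at day 70 and at 0.966 and 2.17 TPM at day 90. Both day 90 libraries lay above day 70 in each cell type, and the mean change of 1.02 ± 0.22 was not called (limma adjusted p = 0.0948, and 0.048 without libraries 3 of day 70). ST18, an islet zinc finger factor, changed by 0.67 ± 0.15 (limma adjusted p = 0.0972). UCN3, a marker of mature beta cells that the alpha libraries also held, was at 190, 250, 216, 88.1 and 162.4 TPM in alpha cells at day 70 and at 83.5 and 68.8 TPM at day 90. In beta cells the ages overlapped and UCN3 changed by -0.33. The alpha change of -1.16 ± 0.30 was not called (limma adjusted p = 0.271). It was called in 1 of the 14 fits that left out 1 library, without alpha day 70 library 4, the lowest of day 70 (limma adjusted p = 0.0261). G6PC2, the islet glucose-6-phosphatase subunit, changed by 0.84 ± 0.26 (limma adjusted p = 0.222), with overlapping ages in both cell types. RGS16, a regulator of G protein signalling, changed by 0.06 in beta cells and by 0.97 ± 0.19 in alpha cells (limma adjusted p = 0.173 for alpha). Of the 14 fits that left out 1 library, only that without alpha day 70 library 3 called the alpha change (limma adjusted p = 0.0374).

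Fetal growth genes were split. Of 23 fitted, IGF2BP1 and IGFBP2 fell and none of the others was called, with 6 above and 17 below zero and a median of log2 -0.08. IGFBP1, a relative of IGFBP2 that also binds insulin-like growth factors, pointed the other way in alpha cells, at 107.2, 37.95, 96.6, 89.2 and 79.5 TPM at day 70 and at 192 and 374 TPM at day 90 (log2 1.78 ± 0.55, limma adjusted p = 0.415). AFP, the fetal serum protein alpha-fetoprotein, was at 0.973 to 5.09 TPM in beta cells at day 70 and at 0 and 0.314 TPM at day 90 (limma adjusted p = 0.419). Of 19 genes that are normally low in mature beta cells, 18 lay below zero, 6 passed an unadjusted p of 0.05 downward (6.58% of all fitted genes) and none was called. The medians were log2 -0.44 over both cell types, -0.76 in beta and -0.11 in alpha cells. Over all fitted genes they were -0.02, -0.13 and 0.07, and the difference between cell types in these medians was not tested. LDHA, the lactate dehydrogenase of that group, was at 6.37, 13.1, 8.86, 11.4 and 14.9 TPM in beta cells at day 70 and at 0.0597 and 3.19 TPM at day 90 (log2 -2.45 ± 0.63, limma adjusted p = 0.316). In alpha cells LDHA changed by 0.14, with overlapping ages. SLC16A1, the lactate and pyruvate carrier, was at 3.61 to 6.08 TPM in beta cells at day 70 and at 1.89 and 3.03 TPM at day 90, and its mean change was -0.74 ± 0.24 (limma adjusted p = 0.235).

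Most cell division genes lay lower at day 90, and none was called. Of 48 fitted, 39 lay below zero, 8 passed the unadjusted threshold downward and 1 upward (6.58% and 4.94% of all fitted genes), and the median was log2 -0.40. In beta cells the median was -0.67 and 17 of the 48 did not overlap between ages, all lower at day 90 (of all fitted genes 11.5% were lower and 3.05% higher without overlap), and in alpha cells the median was -0.13 and 3 were lower and 1 higher without overlap (3.37% and 9.24%). The beta median is to be read against a median of -0.13 over all genes, and the difference between cell types in these medians was not tested. CENPE, a motor protein of the kinetochore, was at 9.88, 11.3, 14.8, 20.6 and 28.3 TPM in beta cells at day 70 and at 4.31 and 4.07 TPM at day 90. In alpha cells it was at 7.02, 8.04, 4.14, 9.26 and 17.5 TPM and then at 2.88 and 2.04 TPM, a mean change of -1.57 ± 0.31 (limma adjusted p = 0.0856). Of the 14 fits that left out 1 library, only that without alpha day 70 library 3 called CENPE (limma adjusted p = 0.0235). CDC20, an activator of the anaphase-promoting complex, was at 2.78 to 4.32 TPM in beta cells at day 70 and at 1.08 and 1.07 TPM at day 90 (mean change -0.73 ± 0.25, limma adjusted p = 0.261). MCM3, a subunit of the replicative helicase, changed by -0.83 ± 0.29 (limma adjusted p = 0.267). Of 21 cell cycle inhibitors and cyclin D kinases, 15 lay above zero with a median of 0.13. CDKN1B, the inhibitor p27, was at 17.3 to 29.3 TPM in beta cells at day 70 and at 34.9 and 32.5 TPM at day 90, and at 27.0 to 40.2 TPM and then 50.7 and 48.9 TPM in alpha cells (0.51 ± 0.15, limma adjusted p = 0.186). Without libraries 3 at day 70, 2 of the 48 division genes were called lower, where 1.18% of all fitted genes were. Within the 8 libraries low in Y-linked transcripts, where day 70 holds only libraries 1 and 3, the median was -0.16.

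Developmental signalling genes leaned lower. Of 51 genes of the Notch, Wnt, Hedgehog and BMP pathways, 40 lay below zero, none was called and the median was log2 -0.29. The unadjusted threshold was passed by 11 downward and 2 upward (6.58% and 4.94% of all fitted genes). NOTCH1, the receptor that holds progenitors back from endocrine fate, was at 9.84, 10.6, 4.53, 7.50 and 19.7 TPM in beta cells at day 70 and at 3.19 and 2.81 TPM at day 90. The level in alpha cells was at 22.5, 25.0, 11.9, 21.2 and 18.7 TPM and then at 8.87 and 10.4 TPM, with no overlap in either cell type (mean change -1.16 ± 0.28, limma adjusted p = 0.124, and 0.046 without beta day 70 library 3, the only call in the 14 fits that left out 1 library). Its ligand DLL1 changed by -0.69 ± 0.15 (limma adjusted p = 0.0972). HHIP, a decoy receptor for Hedgehog ligands, and DKK3, of the Dickkopf family of secreted proteins, changed by -1.96 ± 0.58 and -1.30 ± 0.35 (limma adjusted p = 0.197 and 0.162).

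The list medians farthest from zero were those of early response genes and acinar markers. Of 30 dissociation and early response genes, which cells switch on soon after isolation or stimulation, 1 (NR4A1) was called, 20 passed the unadjusted threshold upward and 1 downward (4.94% and 6.58% of all fitted genes), and the median was log2 1.22, with 7 not overlapping between ages in either cell type, all higher at day 90 (1.03% of all fitted genes). Their summed level was 2430, 2141, 5487, 1976 and 2020 TPM in the beta day 70 libraries and 5317 and 5416 TPM at day 90, and 2865, 2733, 5129, 2075 and 2376 TPM and then 7565 and 7962 TPM in alpha cells. Library 3 at day 70 stood at the level of day 90 in beta cells and between the ages in alpha cells. DNAJB1, a heat shock co-chaperone, was at 73.9, 69.2, 288.02, 49.4 and 48.3 TPM in beta cells at day 70 and at 335 and 342 TPM at day 90. Alpha libraries were at 100.3, 93.8, 180, 34.4 and 51.9 TPM and then at 450 and 439 TPM (mean change 2.26 ± 0.45, limma adjusted p = 0.0856). EGR2, an immediate early zinc finger factor, was at 7.47 TPM in beta and 11.5 TPM in alpha library 3 at day 70, at 0.875 TPM or less in the other 8 day 70 libraries and at 8.63 to 36.1 TPM at day 90 (limma adjusted p = 0.088). GADD45B, a stress-induced relative of GADD45A, changed by 2.08 ± 0.42 (limma adjusted p = 0.0856), and BTG2, an early response inhibitor of proliferation, by 1.23 ± 0.30 (limma adjusted p = 0.129). Without libraries 3 of both cell types, 16 of the 30 were called higher and 1 lower, where 0.768% and 1.18% of all fitted genes were. Those libraries were set apart for their levels of these genes, so that count is no independent evidence. Within the 8 libraries low in Y-linked transcripts, where day 70 holds only libraries 1 and 3, the median of the 30 was 0.58 with none called. The labels do not say how long each isolation took, and the part of handling in these levels was not tested.

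**Figure D3:**
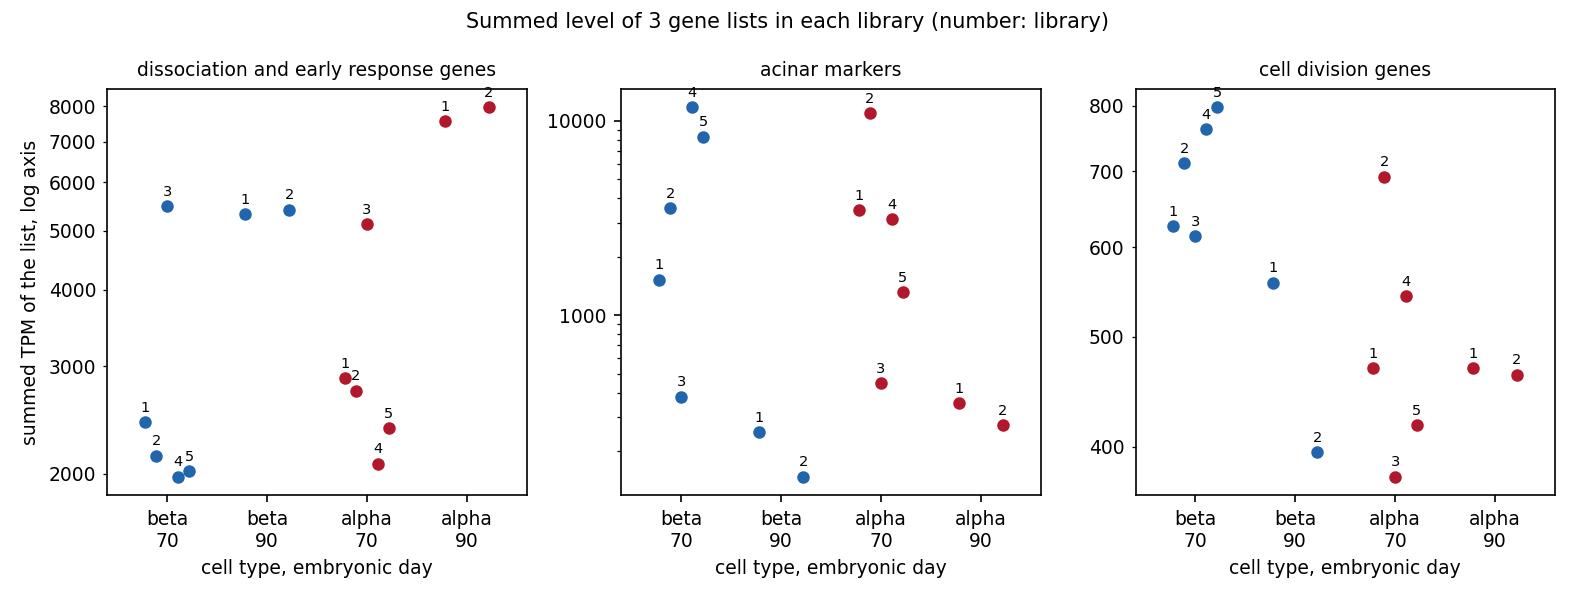
Summed TPM of the early response, acinar and cell division lists in each library on a log axis, beta cells in blue and alpha cells in red, with the library number beside each point. Day 70 library 3 lies beside the day 90 libraries in the early response sum of beta cells and lowest at day 70 in the acinar sum of both cell types.

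Genes of the exocrine pancreas lay lower at day 90. Of 25 acinar markers, 24 lay below zero, 17 passed the unadjusted threshold downward (6.58% of all fitted genes), none was called and the median was log2 -1.96. Their sum was 1524, 3558, 381.6, 11710 and 8292 TPM in the beta day 70 libraries and 250.7 and 147.8 TPM at day 90, and 3463, 10950, 447.3, 3116 and 1316 TPM and then 352.4 and 271.5 TPM in alpha cells. The day 70 libraries were widely spread, and all 4 day 90 libraries lay below all 10. In 7 of the 25 the ages did not overlap in either cell type, all lower at day 90 (1.14% of all fitted genes). CLPS, the cofactor of pancreatic lipase, was at 132, 427, 18.0, 362 and 715 TPM in beta cells at day 70 and at 7.13 and 6.23 TPM at day 90, and at 322, 1327, 74.2, 124.4 and 97.4 TPM and then 26.9 and 14.8 TPM in alpha cells (mean change -3.99 ± 0.86, limma adjusted p = 0.0972). PNLIPRP2, a lipase-related protein, changed by -3.85 ± 0.74 (limma adjusted p = 0.0835), CTRB2, a chymotrypsinogen, by -3.59 ± 0.84 (limma adjusted p = 0.111) and RBPJL, an acinar transcription factor, by -2.65 ± 0.63 (limma adjusted p = 0.118). PTF1A, the factor of acinar and early pancreatic progenitor cells, was at 0.335 to 16.0 TPM in beta cells at day 70 and at 0 and 0.224 TPM at day 90 (limma adjusted p = 0.225). Without libraries 3 at day 70, 16 of the 25 were called lower, where 1.18% of all fitted genes were. Those libraries were set apart for low levels of these genes as well, so the count is no independent evidence. In sorted bulk samples fewer cells of a type and less RNA per cell cannot be told apart.

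Averaged over both cell types, markers of other cell types of the pancreas mostly lay lower as well. Of 25 mesenchyme markers, 23 lay below zero and 13 passed the unadjusted threshold downward (6.58% of all fitted genes), with a median of log2 -0.90 and none called. COL1A2, a chain of type I collagen, was at 126, 88.5, 0.909, 28.0 and 39.1 TPM in beta cells at day 70 and at 1.56 and 0.772 TPM at day 90, with library 3 within the day 90 range. FN1, fibronectin, was at 42.1 to 73.0 TPM in beta cells at day 70 and at 28.9 and 29.6 TPM at day 90 (mean change -0.999 ± 0.25, limma adjusted p = 0.129). FBN1 (-0.60 ± 0.16, limma adjusted p = 0.145) and LUM (-0.69 ± 0.22, limma adjusted p = 0.231), a fibrillin and a matrix proteoglycan, did not overlap between ages in either cell type. The medians were -0.25 over 21 duct markers, -0.32 over 16 endothelial markers, -0.37 over 23 immune cell markers and -0.29 over 18 neural and Schwann cell markers, and none of these was called. In beta cells the median summed TPM of each of these lists and of the mesenchyme list was lower at day 90. In alpha cells the endothelial sum was higher, at 123.4 to 156.8 TPM at day 70 and 173.7 and 176.5 TPM at day 90. There the median sums of duct (1520 and 1523 TPM) and neural markers (366.8 and 375.7 TPM) were not lower, while those of immune and mesenchyme markers were. The 7 fitted red blood cell markers had a median of 0.12. CLDN10, a tight junction gene of ducts whose symbol 2 identifiers carry, was at 44.0 to 216 TPM in beta cells at day 70 and at 13.6 and 16.8 TPM at day 90. The mean change was -1.84 ± 0.41 (limma adjusted p = 0.0972, and 0.049 without beta day 70 library 3, the only call in the 14 fits that left out 1 library). The part of such cells in the falls of ANPEP, IGFBP2 and the division genes was not tested.

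**Figure D4:**
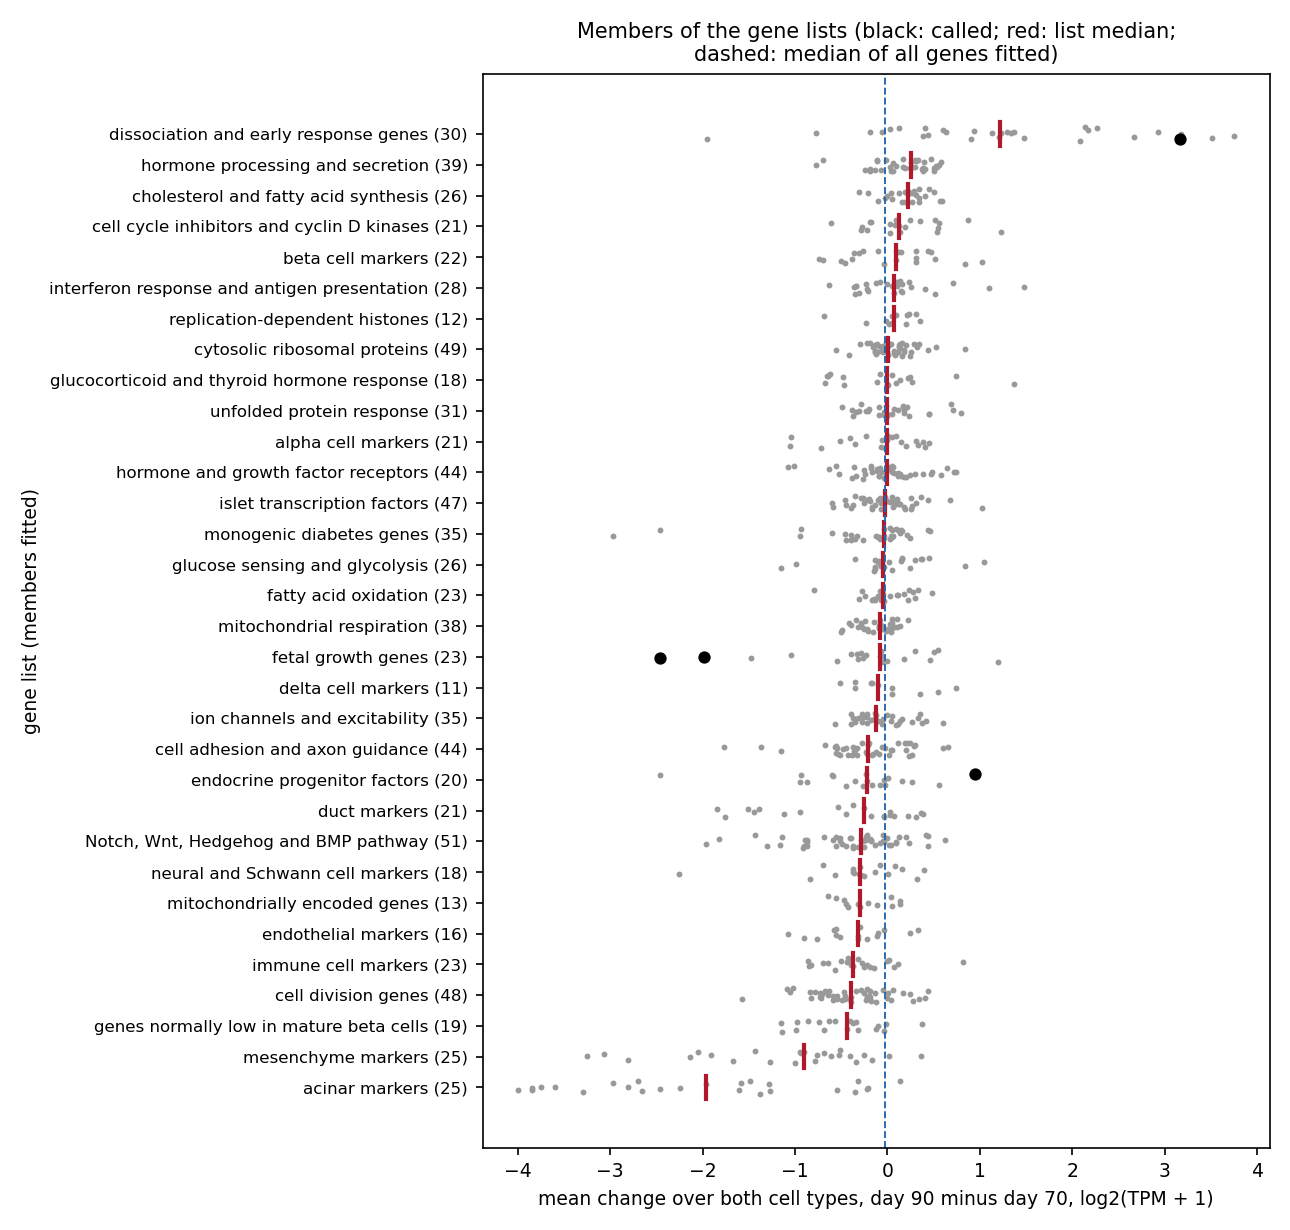
Mean change over both cell types of each fitted member of 32 gene lists with at least 8 fitted members, day 90 minus day 70 on the log2(TPM + 1) scale, with list medians in red, called genes in black and the median of all genes as a dashed line. Early response genes have the highest median (1.22) and acinar markers the lowest (-1.96), and most other medians lie near zero.

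Metabolic lists had medians nearer zero. Of 13 mitochondrially encoded genes, 9 lay below zero, 5 passed the unadjusted threshold downward (6.58% of all fitted genes) and the median was log2 -0.30, whereas 38 nuclear genes of respiration had a median of -0.08. MT-ND5, a subunit of complex I, was at 2062 to 2263 TPM in beta cells at day 70 and at 1241 and 1449 TPM at day 90, and at 2178 to 3344 TPM and then 1576 and 2039 TPM in alpha cells (-0.65 ± 0.16, limma adjusted p = 0.118). COX5B, a nuclear-encoded subunit of cytochrome oxidase, changed by -0.49 ± 0.11 (limma adjusted p = 0.11, and 0.0477 without beta day 70 library 3, the only call in the 14 fits that left out 1 library). Of 26 genes of cholesterol and fatty acid synthesis, 22 lay above zero with a median of 0.23 and 5 passed the unadjusted threshold upward (4.94% of all fitted genes). The median of 31 genes of the unfolded protein response was 0.00, with ATF4, its translational stress factor, at 0.45 ± 0.11 (limma adjusted p = 0.111) and HERPUD1, of degradation at the endoplasmic reticulum, at 0.69 ± 0.20 (limma adjusted p = 0.197). RPLP0, a ribosomal stalk protein whose symbol 2 identifiers carry, changed by 0.84 ± 0.22 (limma adjusted p = 0.143), while 49 ribosomal protein genes had a median of 0.01. The medians were -0.04 over 26 genes of glucose sensing and glycolysis and -0.05 over 23 of fatty acid oxidation.

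Receptors were evenly split, with 22 of 44 above zero and a median of log2 -0.01. PRLR, the prolactin receptor, was at 34.6 to 50.4 TPM in beta cells at day 70 and at 58.2 and 66.6 TPM at day 90, and at 18.4 to 51.7 TPM and then 69.7 and 71.5 TPM in alpha cells (0.72 ± 0.21, limma adjusted p = 0.194). ADRA2A, the adrenaline receptor that restrains insulin release, was at 10.2, 15.6, 35.0, 16.0 and 28.2 TPM in alpha cells at day 70 and at 4.31 and 7.36 TPM at day 90 (-1.60 ± 0.42, limma adjusted p = 0.282). CASR, the calcium-sensing receptor, listed here among the delta cell markers, was at 8.77 to 23.9 TPM in alpha cells at day 70 and at 32.2 and 63.2 TPM at day 90 (1.61 ± 0.37, limma adjusted p = 0.209). Its change in beta cells was -0.12, with overlapping ages. ERRFI1, a glucocorticoid response gene and feedback inhibitor of EGF receptor signalling, was at 104.4, 103.5, 83.5, 98.6 and 67.2 TPM in beta cells at day 70 and at 32.7 and 40.8 TPM at day 90, with alpha cells between 15.3 and 29.9 TPM at both ages. The beta change of -1.28 ± 0.24 was not called (limma adjusted p = 0.135). Of the 14 fits that left out 1 library, only that without alpha day 70 library 4 called it (limma adjusted p = 0.0191), with the beta change itself unaltered. The medians of the other lists were -0.22 over 20 endocrine progenitor factors, of which GADD45A was called, -0.22 over 44 genes of adhesion and axon guidance, -0.13 over 35 ion channel genes, -0.10 over 11 delta cell markers, -0.04 over 35 monogenic diabetes genes, 0.00 over 18 genes of glucocorticoid and thyroid response, 0.07 over 12 histone genes and 0.08 over 28 interferon response genes.

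The libraries of the other ages give levels without a test. IGF2BP1 was at 37.2 to 57.4 TPM in the 6 beta libraries of embryonic day 40, and at 0 to 0.5003 TPM in the 5 beta libraries of postnatal days 8 and 22. In alpha cells it was at 10.9 to 40.7 TPM at day 40, at 3.59 and 4.30 TPM at postnatal day 8 and at 0.506 and 0.555 TPM at postnatal day 22. The day 90 beta libraries were thus near the postnatal beta level, and the day 90 alpha libraries near that of alpha cells at postnatal day 8. SCIN was at 129 to 352 TPM in beta cells at day 40 and at 1.64 to 23.6 TPM after birth, and IGFBP2 was at 18.6 to 57.9 TPM and then at 7.44 to 20.5 TPM. ANPEP was not lower at all later ages, at 14.7 to 31.5 TPM in beta cells at postnatal day 22. MAFA went on to 45.99 to 62.4 TPM in beta cells at postnatal day 22. NR4A1 was at 6.54 to 11.8 TPM at day 40 and at 48.5 to 102.4 TPM after birth in beta cells, and the 2 delta libraries of embryonic day 90 held 16.3 and 14.7 TPM, below all 4 beta and alpha libraries of that day.

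**Figure D5:**
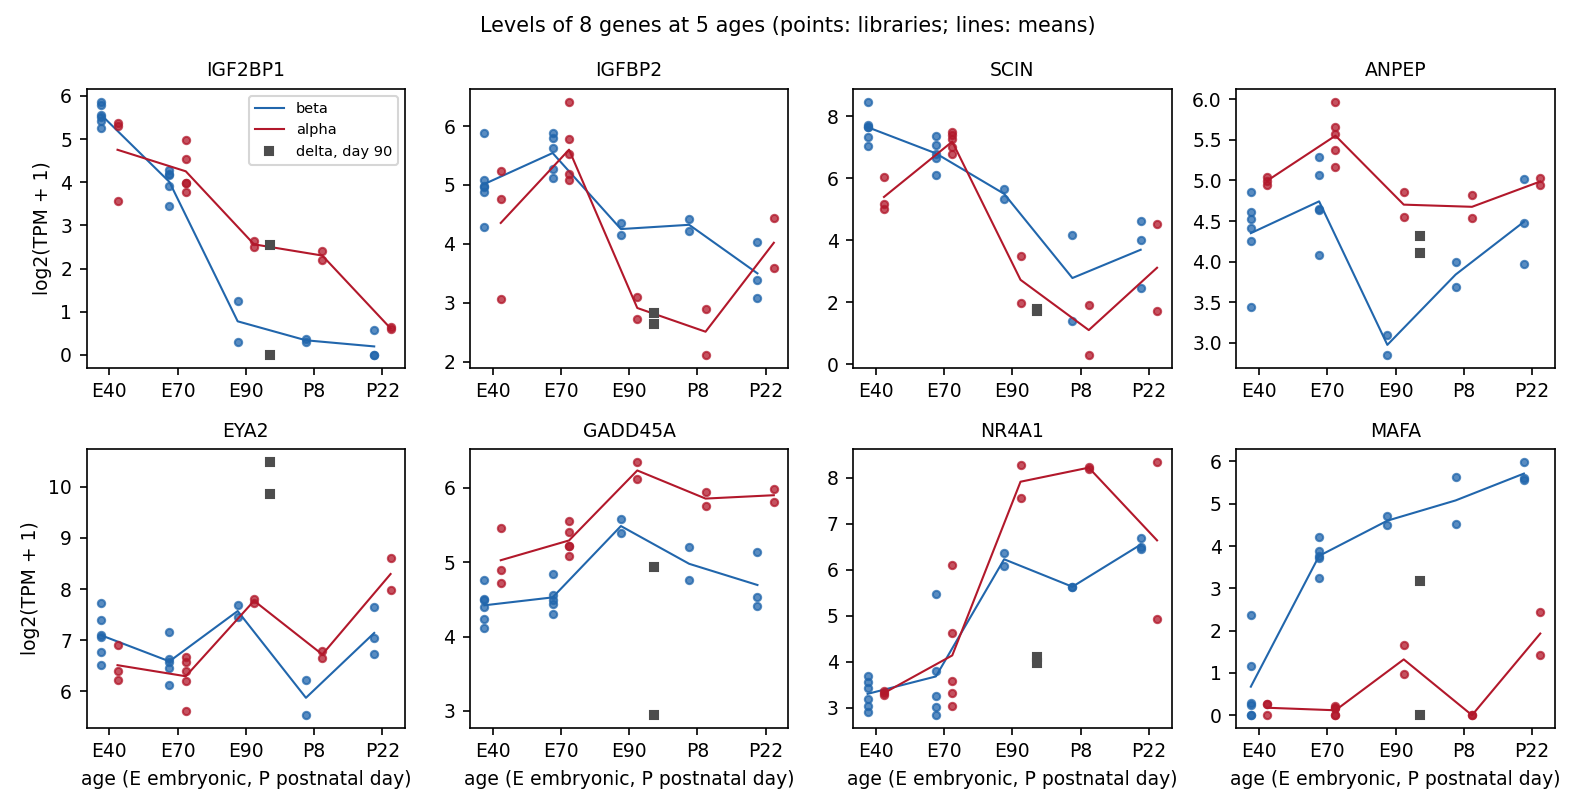
Level of 8 genes as log2(TPM + 1) at embryonic days 40, 70 and 90 and postnatal days 8 and 22 in beta (blue) and alpha cells (red), with the 2 delta libraries of embryonic day 90 as grey squares; points are libraries and lines join group means. IGF2BP1 is near 0 in beta cells from day 90 on, and the delta libraries hold less NR4A1 than the other libraries of day 90.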

How the data were processed

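Bulk RNA-seq of sorted pig islet cells was analysed from the deposited table of TPM values for 22630 genes, which the authors made with Salmon 0.11.3, per the submitters' processing notes. Libraries were made with a stranded total RNA kit and read as paired ends, per the labels' protocols. The genome build is not given in the sources used here, and depth is unknown because TPM keeps no counts. Groups were taken from the labels. Genes with at least 1 TPM in at least 2 of the 14 libraries were fitted as log2(TPM + 1) with limma 3.58.1 (R 4.3.3), with 4 group means, a mean-variance trend and Benjamini-Hochberg adjustment over all fitted genes. The contrasts were the change in each cell type, their mean and their difference. Shares of TPM were compared by exact permutation within cell types (NumPy 2.4.6). Procedures were tested on simulated data. The members and the 34 gene lists were chosen with earlier results of these data known. Genes were named by rule: the largest called changes at 10 TPM or more, up to 4 members of each list with the smallest adjusted p in the mean change, the hormones, called islet transcription factors and the smallest p values of the difference. The called genes outside these limits, F8A1, the main CHMP5 identifier, RAB3A and SYP were named after their values were seen. Alternatives covered pseudocount, filter, scaling, weights, library subsets and title-number pairing.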

Additional observations from a re-analysis of the deposited data

Results flagged for a closer look

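In 19 of 148 groups of 5 day 70 libraries (12.8%), 1 library lay far from the other 4, where chance gives about 1 in 20 for independent, normally distributed values. These genes share libraries and their TPM are skewed, with the library apart on the high side in 18 of the 19, so the share is not read against that rate. Library 3 accounts for 9 of them, 6 in beta and 3 in alpha cells. In beta library 3, NR4A1 was at 43.7 TPM, DNAJB1 at 288.02 TPM, EGR2 at 7.47 TPM, BTG2 at 54.9 TPM, ENSSSCG00000039190.1 (the second CHMP5 identifier) at 33.4 TPM and ENSSSCG00000032725.1 (AC135178.2) at 7.44 TPM, each the highest of its group. In alpha library 3, NR4A1 was at 67.9 TPM, EGR2 at 11.5 TPM and GADD45B at 8.35 TPM, again the highest.

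Alpha library 2 was highest in the exocrine and duct genes PNLIPRP2 (395 TPM), CLPS (1327 TPM) and CLDN10 (196 TPM) and in SST (94.2 TPM). Library 5 held the most hormone of the other cell type, with INS at 6045 TPM in alpha cells and GCG at 1699 TPM in beta cells, and beta library 5 was also highest in GUCY1A1 (52.5 TPM). The others were ENSSSCG00000034033.1 at 8.44 TPM in beta library 1, FBN1 at 100.6 TPM in beta library 4, and ERRFI1 at 15.3 TPM in alpha library 4, the lowest of its group.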

How the results depend on the processing

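Depth is unknown, and 2 libraries for each cell type at day 90 limit the precision. Of 79 gene results, 2 changed sign in some setting, the uncalled hormones GCG and SST. INS in beta cells was 0.00 under quantile normalization, which gives the highest gene of each library the same value, and INS was the highest gene in all 7 beta libraries. GCG in alpha cells was 0.55 under quantile normalization, 0.06 with array weights, 0.24 with a Y-linked covariate and 0.037 without both libraries 3 of day 70, and it ran from -0.235 to 0.037 on leaving out 1 library. SST in beta cells ran from -0.354 to 0.883 on leaving out 1 library. The cause was not tested for these or the counts below.

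The mean change called 1121 genes with array weights (all 17 among them), 320 without both libraries 3, 8 without title numbers under 100, 4 with the Y-linked covariate and 0 within the 8 libraries low in Y-linked transcripts (1387 at an unadjusted p of 0.05). Leaving out 1 library gave 6 to 84. Beta cells had 395 with array weights, 35 without both libraries 3, 8 with no filter, 8 without title numbers under 100, 1 with the filter of 5 TPM, 0 in the beta libraries alone, 0 in the 8 libraries and 4 to 24 on leaving out 1. Alpha cells had 150 with array weights, 40 without both libraries 3, 4 with hormone and mitochondrial genes removed, 3 under the median of ratios, quantile normalization or the Y-linked covariate, 0 in the 8 libraries and 3 to 28 on leaving out 1. The difference had 3 with no filter, array weights or all 37 libraries, 1 under the median of ratios, quantile normalization or without both libraries 3, and 0 to 1 on leaving out 1.

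Titles carry close numbers for a beta and an alpha library, which may pair them. The deviations of the 7 pairs from their group means correlated at 0.015 to 0.209, and 4 of them were over 0.1. In 4 of the 5 day 70 pairs the beta library correlated best with the alpha library of its own number, while the 2 day 90 pairs share 1 value by construction. The Y-linked status matched in 7 of 7, but all day 90 libraries were low, so only the 5 day 70 pairs could have differed. The numbers were not taken to pair them, but the labels do not say whether animals are shared, in which case the p-values of the mean change would be too small. With the replicate block of title numbers the mean change called 16 genes, beta 5, alpha 6 and the difference 1. With pairs averaged the mean change called 2, SCIN and F8A3.

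The share of the 10 most abundant genes was 0.658 points without title numbers under 100 and ran from -0.502 to 0.325 on leaving out 1 library. The ribosomal protein share was 0.686 points without title numbers under 100 (adjusted p = 0.04, exact permutation test). The other shares kept their direction in all settings run. The 3 alternatives on Y-linked transcripts and libraries 3 were chosen after seeing the data.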
